A study of Mus musculus and Homo sapiens with 24 samples.

Results

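The transcription factor p53 switches on a broad set of genes when a cell is stressed, and 31 of its well-known direct targets were followed here in HepG2 cells, a human liver cancer line. The genes were chosen by symbol, with no measured value in the rule, but with earlier results of these data known. All 31 were among the 28278 genes of the HepG2 count table, and all 31 passed the filter on low counts in every comparison.

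The study asked how estrogen and hypoxia together lower the anticoagulant Protein S. HepG2 cells were seeded, left to attach overnight and treated for 4 h. The paper's general HepG2 methods add a night in serum-free medium before treatment, and whether the sequenced cells had it is not stated. Stranded libraries of total RNA, depleted of ribosomal RNA, were sequenced from 4 groups of 3 libraries each, lettered A to C, and values below are given in that order. The control group received neither agent. The CoCl2 group received 50 µM cobalt chloride, a salt that stabilizes hypoxia-inducible factors at normal oxygen. The estrogen group received 25 nM β-estradiol, and the CoCl2+estrogen group received both agents at those doses. No vehicle for the control cells is named in the sources used here, and nothing there says whether the 3 libraries of a group came from independent cultures, so the p-values measure only the spread between these libraries, which may be technical.

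Libraries held 13592637 to 21701480 counts. CoCl2 replicate B stood apart from the other 11 libraries on the second principal component (-37.5 against -16.1 to 17.4), and the members' values without it are given where a result rests on it. Levels are given as CPM, the counts for every 1000000 of a library's total after TMM scaling over the 12 libraries. The hepatocyte-like markers were present in every library (8 of 8), whereas COL1A2, COL3A1, PTPRC, CD3E and KDR, which define fibroblasts, leukocytes and endothelium, had no count in any. Other genes of those lists were detected, COL1A1 at 0.671 to 23.2 CPM, PDGFRB at 5.75 to 8.38 CPM, CD68 at 13.7 to 37.4 CPM and LYZ at 823 to 1240 CPM, while LUM, PECAM1, CDH5 and VWF stayed at or below 2.14 CPM. The summed hepatocyte-like markers were 13979 to 15108 CPM in the control group, 14818 to 15565 CPM with CoCl2, 6738 to 7054 CPM with estrogen and 7581 to 8276 CPM with CoCl2+estrogen. The summed fibroblast markers were 19.9 to 30.4 CPM in the libraries without estrogen and 7.32 to 8.74 CPM in those with estrogen, alone or with CoCl2. The part of these differences in the p53 targets was not tested.

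In an unstressed cell, p53 is kept scarce by the ubiquitin ligase MDM2, and DNA damage or other stress frees it to bind response elements in the genes it controls. Its targets stop the cell cycle, repair DNA, limit oxidative damage or, when stress persists, start apoptosis, and a few of them, MDM2 among them, close the loop by shutting p53 down again. Several members, such as GADD45A and BBC3, are also known to be induced by other stress pathways without p53, so the list is a list of genes and not a measure of p53 activity.

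Estrogen raised most of the list and CoCl2 alone did not, while the combination fell between these levels. The summed level of the 31 genes was 2312 to 2440 CPM in the control libraries, 2373 to 2624 CPM with CoCl2, 5025 to 5225 CPM with estrogen and 3484 to 3544 CPM with CoCl2+estrogen. By the quasi-likelihood test of edgeR, with p-values adjusted over all genes by the Benjamini-Hochberg method and called at 0.05 or less, 23 members rose with estrogen and 5 fell, a total of 28 of 31 (90.3%). Estrogen moved a large part of the transcriptome at this time: 68.9% of the 16281 genes tested were called, 34.7% higher and 34.2% lower. Set against that background, the direction of the members was uneven, with 74.2% of them higher. The median log2 change was 0.91 over the members and -0.00 over all genes tested. Of the members, 14 rose by more than 1 on the log2 scale and 6 by more than 2. Since bulk RNA was measured, fewer cells carrying a transcript and less of it per cell cannot be told apart.

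**Figure D1:**
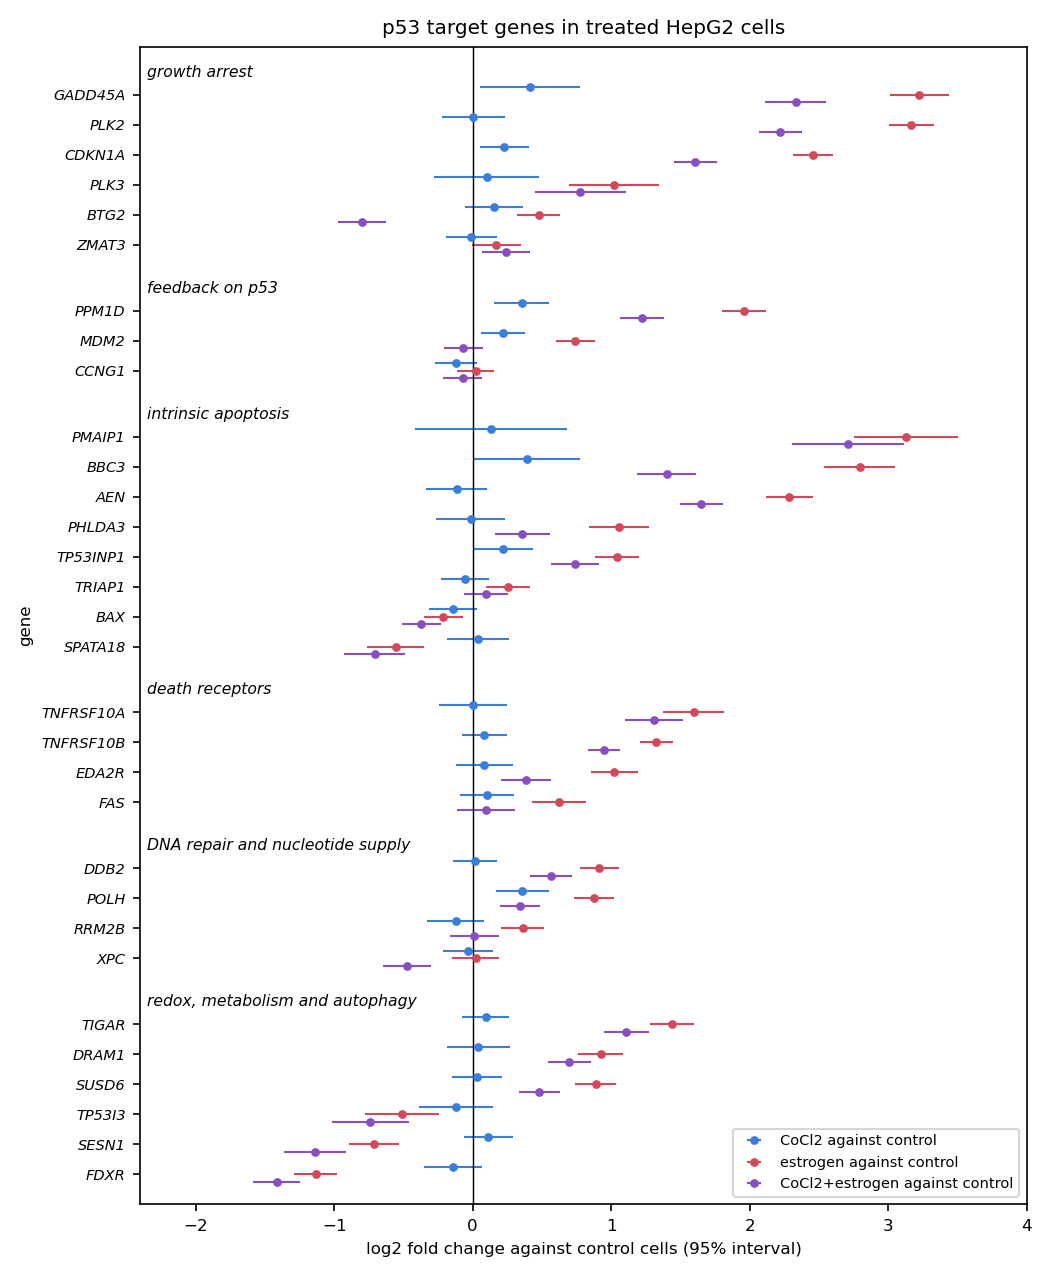
Log2 fold change against control cells (horizontal axis) for the 31 p53 target genes, grouped by role; points are edgeR estimates and bars are 95% confidence intervals, for CoCl2, estrogen and CoCl2+estrogen. The estrogen points reach from -1.13 (FDXR) to 3.22 (GADD45A), the CoCl2 points stay between -0.14 and 0.41, and most CoCl2+estrogen points lie between the other two.

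The growth arrest genes held the 2 largest rises, those of GADD45A and PLK2. CDKN1A encodes p21, the inhibitor of cyclin-dependent kinases through which p53 halts the cell cycle. Its level was 109, 106 and 119.8 CPM in the control libraries, 140.0, 122 and 129 CPM with CoCl2, 632, 635 and 577 CPM with estrogen and 368, 357 and 320.2 CPM with CoCl2+estrogen. The estrogen and CoCl2+estrogen libraries overlapped neither each other nor the other groups. CDKN1A was 5.504-fold higher with estrogen than in control cells (log2 change 2.46 ± 0.07 SE, adjusted p = 2.33e-13). With CoCl2+estrogen it was 3.05-fold above control (log2 change 1.61 ± 0.07, adjusted p = 1.42e-10) and below estrogen alone by a log2 change of -0.81 (adjusted p = 7.04e-08).

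GADD45A, which binds PCNA and stress kinases and slows entry into mitosis, went from 20.5, 17.004 and 23.8 CPM in control cells to 181, 192 and 196 CPM with estrogen and 112, 99.8 and 103 CPM with CoCl2+estrogen; with CoCl2 alone it read 22.03, 33.95 and 25.4 CPM. Its 9.34-fold rise with estrogen (log2 change 3.22 ± 0.10, adjusted p = 7.41e-13) was the largest log2 change of the 31. PLK2, a stress-induced polo-like kinase, went from 19.1, 17.97 and 16.5 CPM to 159.7, 154 and 167 CPM with estrogen and stood at 83.1, 86.1 and 86.2 CPM with CoCl2+estrogen and 17.3, 15.99 and 20.005 CPM with CoCl2. For both genes the CoCl2+estrogen libraries lay above every control and CoCl2 library and below every estrogen library. PLK2 rose by a log2 change of 3.17 ± 0.08 with estrogen (adjusted p = 6.96e-14), and its CoCl2 and control libraries overlapped.

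PLK3, a related stress kinase, rose less, from 11.5, 7.42 and 11.3 CPM to 18.8, 22.9 and 19.4 CPM with estrogen (log2 change 1.02 ± 0.15, adjusted p = 2.18e-05), and its 15.4, 18.9 and 18.4 CPM with CoCl2+estrogen overlapped the estrogen libraries. ZMAT3, a zinc finger RNA-binding protein, was called neither with estrogen (log2 change 0.17 ± 0.08, adjusted p = 0.0828) nor with CoCl2. Under CoCl2+estrogen it was above control by 0.24 ± 0.08 (adjusted p = 0.016), a call lost without CoCl2+estrogen replicate C (log2 change 0.18, adjusted p = 0.0828) and under scaling by library totals (adjusted p = 0.121).

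BTG2, an antiproliferative cofactor of the mRNA deadenylase, moved in opposite directions in the treated groups. It read 38.05, 42.8 and 39.1 CPM in control libraries, 39.99, 42.1 and 50.6 CPM with CoCl2, 56.4, 57.2 and 53.3 CPM with estrogen and 23.4, 23.8 and 23.4 CPM with CoCl2+estrogen. The CoCl2+estrogen libraries were therefore the lowest of the 12 and the estrogen libraries the highest. BTG2 rose with estrogen alone by a log2 change of 0.48 ± 0.07 (adjusted p = 2.47e-05) and was below control under the combination by -0.80 (SE 0.08, adjusted p = 6.28e-07). No other member was called higher than control with estrogen and called lower than control with CoCl2+estrogen.

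**Figure D2:**
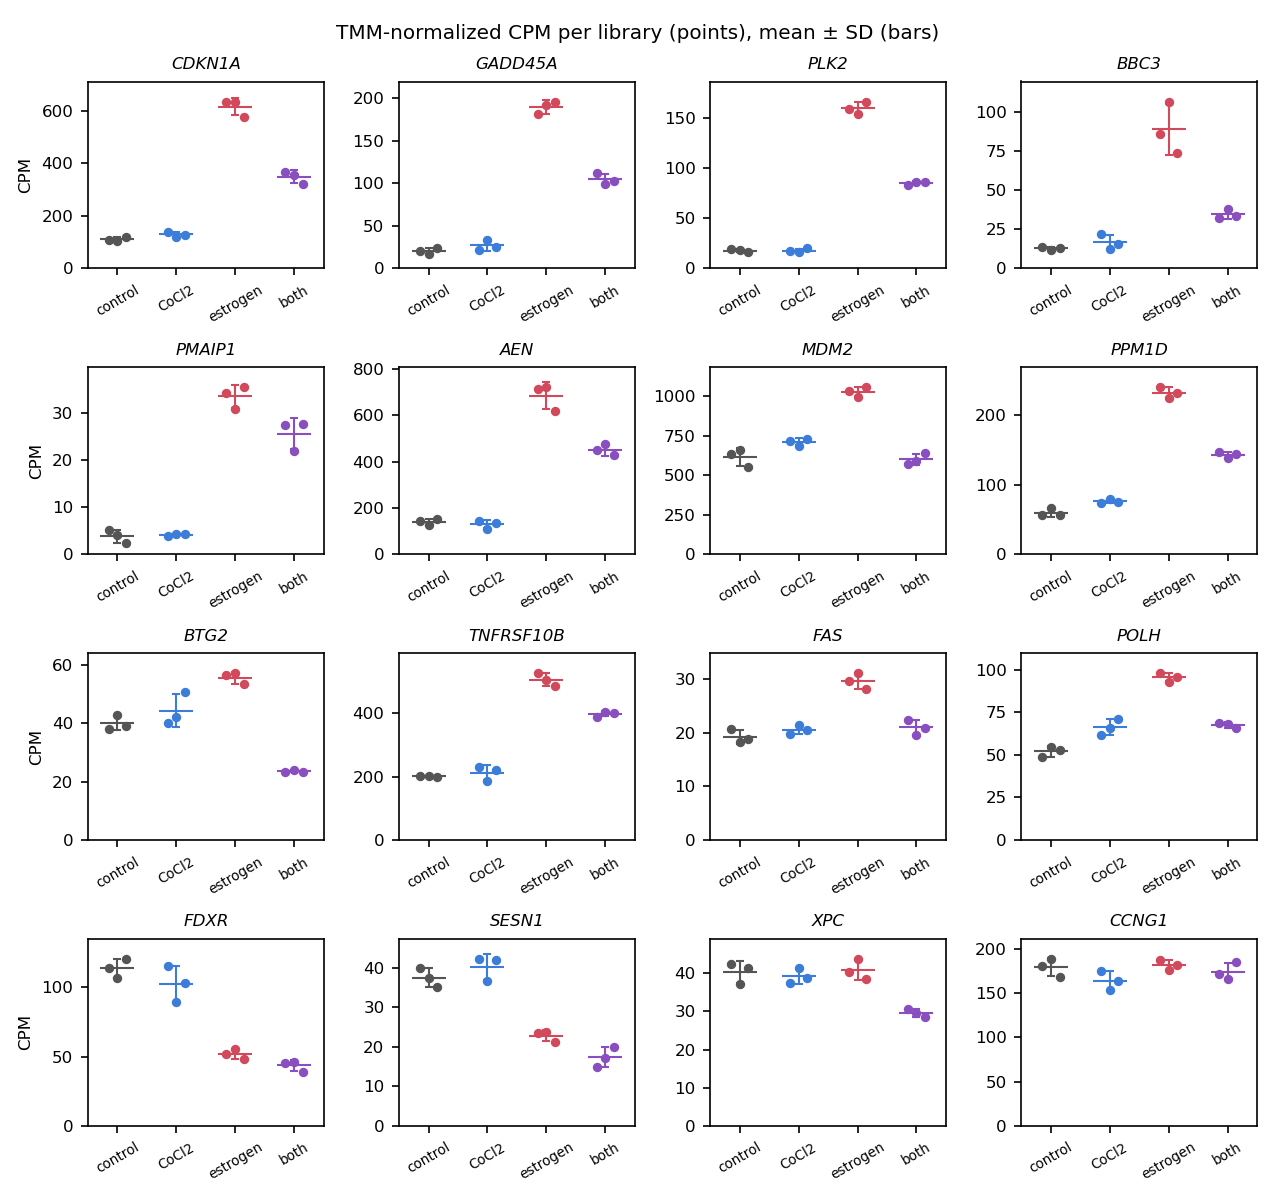
Level of 16 p53 target genes in each HepG2 library, in CPM with TMM scaling over the 12 libraries (vertical axes start at 0); points are libraries A, B and C of control cells and of cells given CoCl2, estrogen or both, and bars give the mean ± SD of 3 libraries. CDKN1A, GADD45A, PLK2, BBC3, AEN and PPM1D stand highest with estrogen and at an intermediate level with both agents. BTG2, XPC, FDXR and SESN1 are lowest with both. The CCNG1 libraries of every treated group overlap the control libraries.

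Of the 3 genes that feed back on p53, those encoding the main brakes rose with estrogen. MDM2, the ligase that marks p53 for degradation, measured 634, 657 and 553 CPM in control libraries, 718, 686 and 731 CPM with CoCl2, 1031, 994 and 1056 CPM with estrogen and 572, 588 and 641 CPM with CoCl2+estrogen. The estrogen libraries lay above all others, and the CoCl2+estrogen libraries overlapped the controls. The rise with estrogen was 1.67-fold (log2 change 0.74 ± 0.07, adjusted p = 9.09e-08). Under the combination MDM2 did not pass the test against control (log2 change -0.07, 95% interval -0.21 to 0.08, adjusted p = 0.4), and against CoCl2 alone it was lower by a log2 change of -0.27 (adjusted p = 0.00335).

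PPM1D encodes WIP1, the phosphatase that removes activating phosphates from p53 and its kinases. Its levels were 56.3, 66.4 and 56.1 CPM in control cells, 73.6, 79.1 and 74.6 CPM with CoCl2, 239, 224 and 232 CPM with estrogen and 147, 138 and 144 CPM with CoCl2+estrogen, with no overlap between any 2 groups. It rose 3.89-fold with estrogen (log2 change 1.96 ± 0.07, adjusted p = 6.25e-12). The third, CCNG1, which encodes cyclin G1, was called in none of the 6 tests. It ranged over 181, 189 and 169 CPM in control cells and 188, 176 and 182 CPM with estrogen, a log2 difference of 0.02 (95% interval -0.11 to 0.15) whose sign turned under other scalings.

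All 8 members tied to the mitochondrial route of apoptosis were called with estrogen, 6 of them higher (68.9% and 34.7% of all genes). BBC3 encodes PUMA, a BH3-only protein that frees BAX and BAK at the mitochondrion. It read 13.5, 11.8 and 13.2 CPM in control libraries, 21.8, 12.3 and 15.7 CPM with CoCl2, 85.9, 107 and 73.9 CPM with estrogen and 32.5, 37.8 and 33.3 CPM with CoCl2+estrogen. Its 6.94-fold rise with estrogen (log2 change 2.79 ± 0.12, adjusted p = 2.17e-11) shrank to 2.64-fold over control under the combination (log2 change 1.40 ± 0.10, adjusted p = 1.64e-08). PMAIP1 encodes NOXA, the BH3-only partner of MCL1, and measured 5.07, 4.01 and 2.302 CPM in control cells. It reached 34.3, 30.8 and 35.5 CPM with estrogen (log2 change 3.13 ± 0.18, adjusted p = 4.46e-10) and 27.3, 21.9 and 27.6 CPM with CoCl2+estrogen. The combination stayed below estrogen alone for PMAIP1 by a log2 change of -0.38 (adjusted p = 0.0111), which missed the threshold without estrogen replicate A (adjusted p = 0.0557) or without CoCl2+estrogen replicate B (adjusted p = 0.0555).

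AEN, an apoptosis-enhancing nuclease, went from 142, 128 and 152 CPM to 714, 721 and 619 CPM with estrogen, a log2 change of 2.29 ± 0.08 (adjusted p = 2.09e-12), and was 449.9, 477 and 426 CPM with CoCl2+estrogen and 144, 109 and 134 CPM with CoCl2. PHLDA3, an inhibitor of AKT signalling, rose with estrogen from 56.5, 43.96 and 54.2 CPM to 106, 121 and 93.6 CPM (log2 change 1.06 ± 0.10, adjusted p = 2.05e-07). TP53INP1, a cofactor that promotes p53 phosphorylation and autophagy, rose from 85.4, 95.02 and 76.9 CPM to 181, 173 and 177 CPM (log2 change 1.04 ± 0.08, adjusted p = 7.40e-09). The estrogen libraries of these 3 genes overlapped no library of another group. TRIAP1, a small inhibitor of apoptosis that acts in mitochondrial lipid transfer, rose least, by 0.26 ± 0.07 (adjusted p = 0.0069), and the call was lost without estrogen replicate A (log2 change 0.16, adjusted p = 0.0863) and under scaling by library totals (0.13, adjusted p = 0.149).

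BAX and SPATA18 went the other way. BAX, the pore-forming executioner of this route, measured 90.2, 97.7 and 90.98 CPM in control cells and 78.8, 84.02 and 78.02 CPM with estrogen, a small fall with no overlap (log2 change -0.21, SE 0.07, adjusted p = 0.01). Under the combination its 77.2, 71.4 and 71.95 CPM also lay below control (log2 change -0.37, adjusted p = 1.63e-04). SPATA18, also called Mieap and linked to mitochondrial quality control, fell from 22.8, 21.3 and 21.2 CPM to 14.3, 15.3 and 14.8 CPM with estrogen (log2 change -0.56, SE 0.10, adjusted p = 1.01e-04) and was 12.8, 12.8 and 15.3 CPM with both agents.

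The 4 death receptor genes all rose with estrogen, as did 34.7% of all genes. TNFRSF10B encodes the TRAIL receptor DR5 and went from 203, 202 and 199.9 CPM to 526, 503 and 486 CPM, with 389, 403 and 400.2 CPM under CoCl2+estrogen and 229.5, 186 and 221 CPM under CoCl2. Its log2 change with estrogen was 1.33 ± 0.06 (adjusted p = 2.08e-11). TNFRSF10A, which encodes the other death-inducing TRAIL receptor, DR4, went from 13.1, 13.9 and 15.998 CPM to 44.5, 38.1 and 46.99 CPM with estrogen and kept 37.5, 35.02 and 36.1 CPM with CoCl2+estrogen. In both TRAIL receptor genes every library that received estrogen, with or without CoCl2, lay above every library that did not. TNFRSF10A rose by a log2 change of 1.60 ± 0.10 (adjusted p = 2.21e-09), and its step down from estrogen to the combination (-0.25, adjusted p = 0.0462) was not called by DESeq2 (adjusted p = 0.0541) and was lost in 5 of the 6 fits that left out 1 library (adjusted p up to 0.176).

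EDA2R, the receptor of ectodysplasin A2, rose from 19.96, 19.999 and 20.1 CPM to 42.9, 38.1 and 40.9 CPM with estrogen (log2 change 1.02 ± 0.08, adjusted p = 2.04e-08) and measured 26.1, 26.9 and 27.3 CPM with both agents. FAS, the receptor of FAS ligand, measured 20.7, 18.2 and 18.8 CPM in control cells, 19.8, 21.4 and 20.6 CPM with CoCl2, 29.7, 31.1 and 28.1 CPM with estrogen and 22.4, 19.6 and 20.96 CPM with CoCl2+estrogen. FAS with both agents overlapped the CoCl2 and control libraries, and only the estrogen group stood apart. The FAS rise with estrogen was 0.62 ± 0.09 on the log2 scale (adjusted p = 1.80e-05). An antisense gene, FAS-AS1, overlaps FAS, and whether counting used strand is not stated in the sources used here.

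In the DNA repair group, 3 of 4 members rose with estrogen, as did 34.7% of all genes. DDB2, a damage-recognition subunit of nucleotide excision repair, went from 44.9, 42.9 and 41.8 CPM to 81.2, 77.9 and 85.2 CPM with estrogen and was 68.1, 68.5 and 59.8 CPM with CoCl2+estrogen (log2 change with estrogen 0.91 ± 0.07, adjusted p = 8.63e-09). POLH, the polymerase that copies past ultraviolet lesions, measured 48.7, 54.7 and 52.8 CPM in control libraries, 61.8, 65.996 and 71.3 CPM with CoCl2, 97.99, 93.002 and 95.8 CPM with estrogen and 68.9, 68.1 and 65.7 CPM with both. The POLH estrogen libraries stood above the rest, and the CoCl2 and CoCl2+estrogen libraries overlapped. Its rise with estrogen was 0.88 ± 0.07 (adjusted p = 1.55e-08).

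RRM2B, the p53-induced subunit of ribonucleotide reductase, rose modestly from 65.4, 62.3 and 54.8 CPM to 77.6, 75.6 and 81.1 CPM with estrogen (log2 change 0.36 ± 0.07, adjusted p = 4.68e-04) and overlapped control under the combination at 59.7, 59.1 and 69.7 CPM. XPC, the lesion sensor of global genome repair, measured 42.5, 37.2 and 41.4 CPM in control libraries, 37.5, 41.3 and 38.9 CPM with CoCl2, 40.4, 43.8 and 38.4 CPM with estrogen and 30.7, 29.6 and 28.7 CPM with CoCl2+estrogen. XPC was thus low only in the 3 libraries with both agents. It did not pass the test with estrogen alone (95% interval -0.15 to 0.19), and it was below control under the combination by a log2 change of -0.48 (SE 0.08, adjusted p = 1.13e-04).

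The redox, metabolism and autophagy group divided evenly, with 3 members higher and 3 lower with estrogen (34.7% and 34.2% of all genes). TIGAR, a phosphatase that diverts glucose into the pentose phosphate pathway, rose from 33.6, 36.03 and 30.7 CPM to 93.8, 86.2 and 92.2 CPM (log2 change 1.44 ± 0.07, adjusted p = 1.71e-10) and stayed at 70.7, 72.2 and 78.8 CPM with CoCl2+estrogen. DRAM1, a lysosomal protein of autophagy, rose by 0.92 ± 0.08 (adjusted p = 3.39e-08). SUSD6, a membrane protein induced by DNA damage, rose by 0.89 ± 0.07 (adjusted p = 2.12e-08).

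FDXR, the reductase that passes electrons to mitochondrial steroid and iron-sulfur synthesis, fell from 114, 107 and 121 CPM to 52.1, 55.2 and 47.96 CPM with estrogen and was 45.5, 45.9 and 39.2 CPM with CoCl2+estrogen. Every library that received estrogen lay below every library that did not. Its log2 change of -1.13 (SE 0.07, adjusted p = 2.37e-09) was the lowest of the 31 with estrogen, and -1.42 under the combination (adjusted p = 1.25e-09) was the lowest there too. SESN1, a sestrin that restrains mTORC1, went from 39.9, 37.5 and 35.2 CPM in control cells to 23.6, 23.9 and 21.1 CPM with estrogen and 14.97, 17.2 and 20.1 CPM with both. The SESN1 fall with estrogen was -0.71 on the log2 scale (SE 0.09, adjusted p = 2.18e-06). TP53I3, also called PIG3, a quinone oxidoreductase, measured 29.9, 22.7 and 32.1 CPM in control cells and 20.7, 21.02 and 17.3 CPM with estrogen (log2 change -0.51, SE 0.12, adjusted p = 0.00193).

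CoCl2 alone gave no called member. By edgeR 0 of 31 passed, where 1.44% of the 15872 genes tested did (1.31% higher). An unadjusted p under 0.05 was met by 7 of the 31, all 7 higher, and by 11.3% of all genes in either direction. The fitted change was above 0 for 21 of 31 members, with a median of 0.042. DESeq2 called 2, PPM1D and POLH, both higher. The PPM1D difference in the edgeR fit was 0.35 ± 0.09 on the log2 scale (adjusted p = 0.116), with CoCl2 libraries above all control libraries. For POLH the CoCl2 and control libraries also did not overlap, and the log2 difference was 0.36 ± 0.09 (adjusted p = 0.0876). CDKN1A differed by 0.23 ± 0.08 (adjusted p = 0.313) and MDM2 by 0.22 ± 0.07 (adjusted p = 0.279), again without overlap. These 4 genes were the only members whose CoCl2 and control libraries did not overlap, all 4 higher; 8.63% of all genes tested had CoCl2 libraries wholly above control. The largest estimate, that of GADD45A, was 0.41 (95% interval 0.05 to 0.77, adjusted p = 0.378), with its highest value in CoCl2 replicate B, the library that stood apart. Without that library the GADD45A estimate was 0.21 (adjusted p = 0.711), below those of POLH (0.35) and PPM1D (0.31).

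The combination was compared with estrogen alone to see what CoCl2 did in the presence of estrogen. Of the 31 members, 23 were lower with CoCl2+estrogen than with estrogen (74.2%), and none was higher by edgeR or by DESeq2. An unadjusted p under 0.05 was met by 24 members, none of them higher, and by 29.1% of all genes in either direction. Over all 15925 genes tested, 17% were called, 8.85% lower and 8.14% higher. The fitted change was below 0 for 30 of 31 members, with a median of -0.36 against 0.01 over all genes, and ZMAT3 was the exception at 0.11 (95% interval -0.03 to 0.26). The largest steps down were in BBC3 (-1.35, SE 0.11, adjusted p = 1.06e-07) and BTG2 (-1.23, SE 0.07, adjusted p = 3.08e-09). PLK2, GADD45A, CDKN1A and MDM2 followed, with log2 changes of -0.90, -0.85, -0.81 and -0.77. FDXR and SESN1, low with estrogen already, were lower again by -0.24 (adjusted p = 0.0498) and -0.39 (adjusted p = 0.0221). The FDXR call was lost in 4 of the 6 fits that left out 1 library and the SESN1 call in 3 of 6, without a change of sign.

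Against control, 26 members were called under CoCl2+estrogen, 19 higher and 7 lower, where 65.4% of the 16201 genes tested were called, 32.3% higher and 33.2% lower. The 7 lower genes were BTG2, XPC, BAX, SPATA18, TP53I3, SESN1 and FDXR. For the 23 members that rose with estrogen, the mean CPM difference from control that remained under CoCl2+estrogen was expressed as a percentage of the difference with estrogen alone. It had a median of 48.2% and lay between 0 and 100% for 21 of the 23. The lowest was that of BTG2 (-105%), followed by MDM2 (-3.56%), RRM2B (11.4%), FAS (16.7%), PHLDA3 (28.5%) and BBC3 (28.6%). The highest were TNFRSF10A (75.7%), DRAM1 (73.6%), PMAIP1 (73.5%), PLK3 (72.8%) and TIGAR (70.6%), while CDKN1A kept 47.03% and GADD45A 49.7%. These shares describe means of the same libraries and carry no test of their own. The 23 genes were picked by their rise with estrogen, which is also the divisor, and this can by itself pull shares below 100%. Shares of genes with a small rise, such as RRM2B, are imprecise.

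The effect of estrogen could be read a second time, in cells that had CoCl2, from libraries that the first comparison did not use. CoCl2+estrogen against CoCl2 called 26 members, 18 higher and 8 lower, where 60.9% of the 16200 genes tested were called, 30.1% higher and 30.8% lower. Of the 23 members that estrogen raised without CoCl2, 17 were also raised with it. FAS, RRM2B, POLH and TRIAP1 were not called with CoCl2, and MDM2 and BTG2 were lower. Of the 5 that fell without CoCl2, all 5 also fell with it. The like shares among all genes moved by estrogen were not counted, so these counts show nothing particular to the members. For POLH and FAS the CoCl2+estrogen and CoCl2 libraries overlapped. PMAIP1 showed the largest rise there (2.60 ± 0.13, adjusted p = 3.12e-09), ahead of PLK2 (2.23 ± 0.10, adjusted p = 9.31e-10). Without CoCl2 replicate B the count was again 26, 18 higher and 8 lower.

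**Figure D3:**
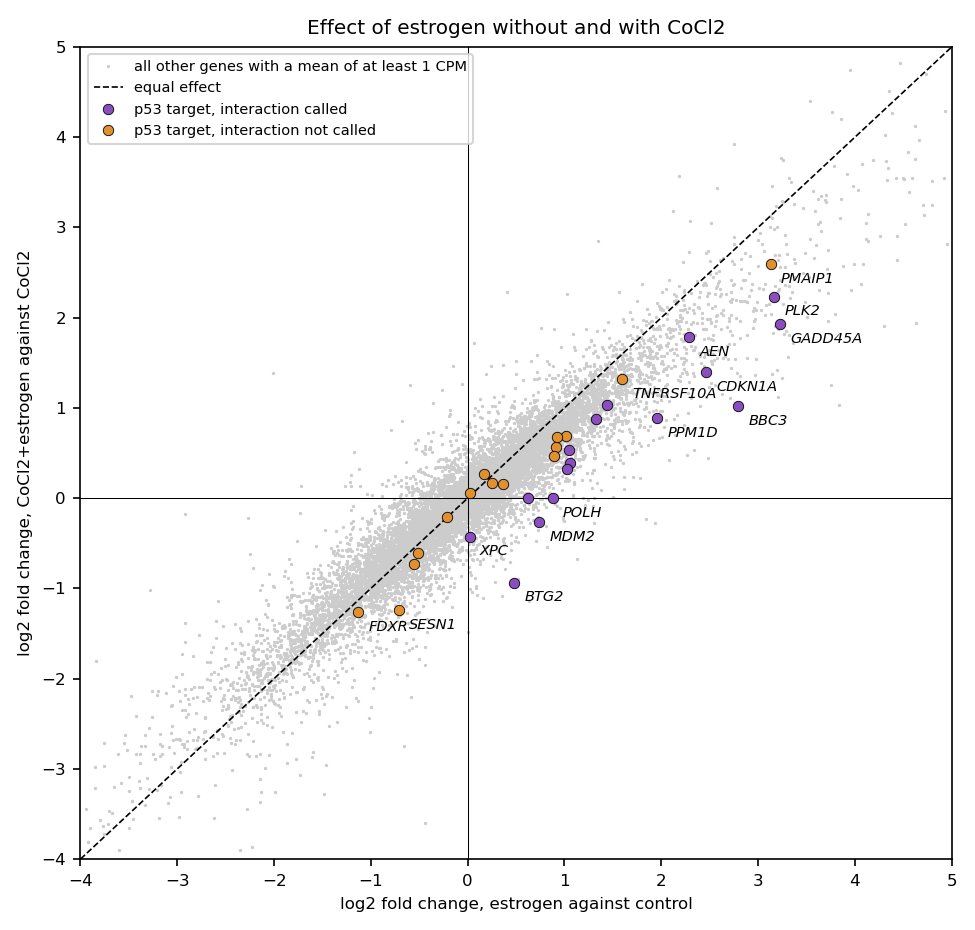
Log2 fold change with estrogen in cells without CoCl2 (horizontal axis) and in cells with CoCl2 (vertical axis), from separate libraries; grey points are other genes averaging 1 CPM or more that fall inside the axes, coloured points are the 31 p53 target genes and the dashed line marks an equal effect. Most p53 targets lie under the line, and purple points are the 16 whose difference between the axes was called.

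The difference between these effects was tested as an interaction over the 12 libraries. It was called for 16 of 31 members, all 16 with a negative sign, where 5.8% of the 16681 genes tested were called, 3.7% negative and 2.1% positive. The median over members was -0.42 and that over all genes 0.01, where genes raised and lowered by estrogen can cancel. Whether other genes that estrogen raised shrank as much, here or in CoCl2+estrogen against estrogen, was not tested. On the first principal component (81.0% of variance) the CoCl2+estrogen libraries (47.2 to 52.5) lay on the side of the estrogen libraries (63.6 to 64.0). They were shifted from the estrogen libraries toward the control libraries (-59.1 to -56.2). Scaling by library totals moved the share of positive calls over all genes from 36.2% to 51.6%, and among the members it left 12 calls, all 12 negative. BBC3 had the largest interaction, -1.75 (95% interval -2.23 to -1.27, adjusted p = 1.14e-04). Next came BTG2 at -1.39 (adjusted p = 3.30e-06), GADD45A at -1.26 (adjusted p = 1.92e-04), and PPM1D and CDKN1A, both at -1.04 (adjusted p = 2.53e-06 and 8.08e-06). MDM2, PLK2 and POLH had values of -0.99, -0.91 and -0.85. The genes with the strongest rise were not uniformly those with a called interaction. PMAIP1, whose rise with estrogen was 3.13, had an estimate of -0.51 with a 95% interval of -1.03 to 0.02 (adjusted p = 0.29). AEN passed at -0.48 with an SE of 0.13, whereas PMAIP1, with an SE of 0.25, the largest of the 31, was not called. TNFRSF10A was not called either (-0.25, 95% interval -0.55 to 0.05). Without CoCl2 replicate B the interaction was called for 19 members, all negative.

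**Figure D4:**
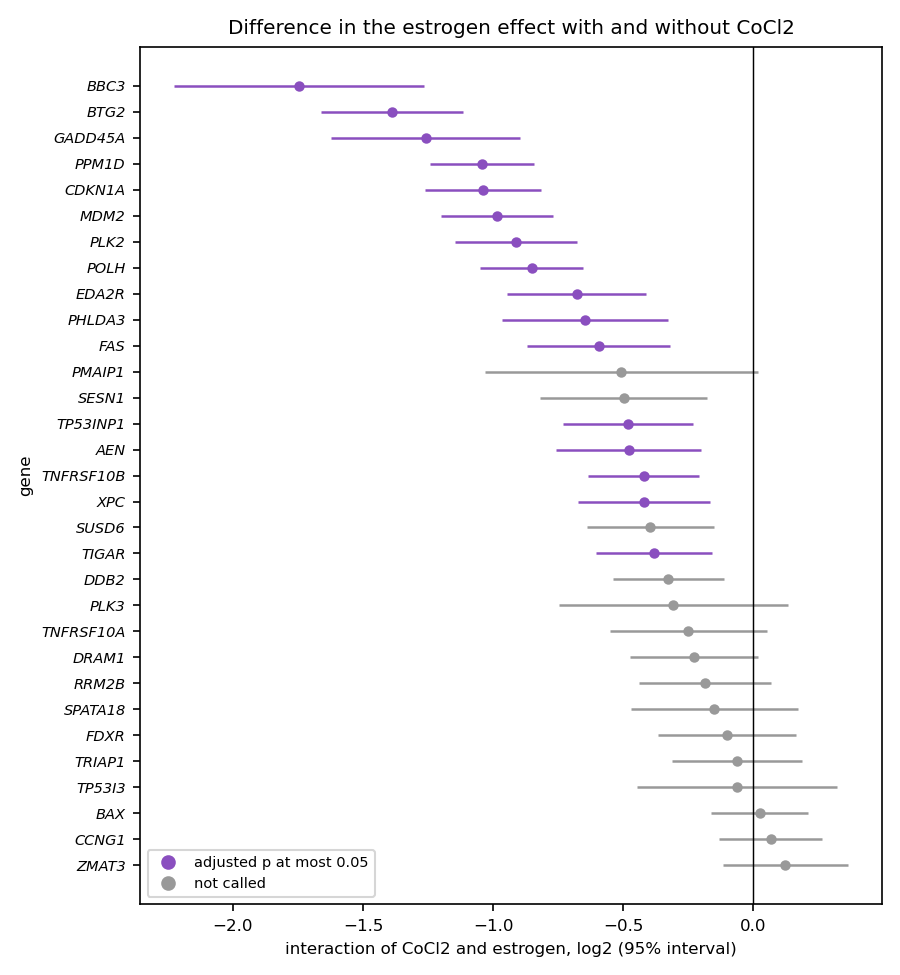
Interaction of CoCl2 and estrogen for the 31 p53 target genes, that is the log2 effect of estrogen with CoCl2 minus that without it (horizontal axis), with 95% confidence intervals; purple marks an adjusted p of at most 0.05 over all genes. The called genes run from BBC3 at -1.75 to TIGAR at -0.38, and none of the 3 positive estimates was called.

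The p53 protein, which is set mainly by its breakdown, was not measured in these data. TP73, which encodes another member of the p53 family, fell from 11.5, 12.3 and 13.1 CPM to 3.45, 3.92 and 3.801 CPM with estrogen (log2 change -1.73, adjusted p = 1.83e-08). MDM4, which encodes the MDM2 partner that masks the p53 activation domain, rose from 51.9, 52.7 and 54.7 CPM to 92.5, 89.9 and 96.8 CPM (log2 change 0.81 ± 0.06, adjusted p = 2.29e-08).

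In the list of p53 regulators, 23 of 28 genes tested were called with estrogen (82.1%, against 68.9% of all genes), and the list's median log2 change was 0.09. There were 13 higher and 10 lower (46.4% and 35.7%, against 34.7% and 34.2% of all genes). The checkpoint kinase gene CHEK2 was among the lower ones (-1.92, adjusted p = 1.09e-09). The acetyltransferase genes CREBBP (1.38) and EP300 (1.02), the deacetylase gene SIRT1 (1.55) and CDKN2A (1.30), whose ARF product blocks MDM2, rose. CoCl2 raised 1 of the 28, PPP1R13L, which encodes the p53 inhibitor iASPP (0.72, adjusted p = 9.86e-04), where 1.31% of all genes rose.

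In a second list of 35 further p53 targets, 27 of 34 tested were called with estrogen (79.4%, against 68.9% of all genes), 19 higher and 8 lower (34.7% and 34.2% of all genes), and the median was 0.24. GDF15, a secreted stress cytokine, rose from 149, 138 and 160.3 CPM to 3441, 3479.6 and 3157 CPM (log2 change 4.50 ± 0.07, adjusted p = 1.82e-15), a larger change than that of any of the 31 members. ATF3, a stress transcription factor, rose by 4.59, BTG1 by 3.33, CSF1 by 2.00 and SESN2 by 1.48, and the decoy receptor gene TNFRSF10D rose 4.602-fold. SESN2 thus rose where its family member SESN1 fell. Under CoCl2+estrogen 11 of the 34 were below estrogen alone and 2 above it, against 8.85% and 8.14% of all genes. The 2 above were SFN and TNFRSF10D, of which SFN was picked out after its value was seen. A called interaction was found for 9 of the 34 (5.8% of all genes), all negative, GDF15 (-0.93), ATF3 (-1.02) and SESN2 (-1.10) among them. CoCl2 alone raised 6 of the 33 tested (1.31% of all genes). These included DDIT4 (1.85), BTG1 (0.51), APAF1 (0.51) and E2F7 (0.43), of which DDIT4 is also a well-known target of hypoxia-inducible factors. Mean levels with both agents were below those with CoCl2 alone for DDIT4 (81.9 against 178 CPM), APAF1 (43.0 against 57.4 CPM) and E2F7 (18.5 against 34.6 CPM). BTG1 was higher with both (130 against 27.6 CPM). A negative interaction can thus also go with a CoCl2 rise that was smaller or absent under estrogen.

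Genes that p53 lowers indirectly, through p21 and the DREAM repressor complex, were lower with estrogen in 16 of 20 cases, where 34.2% of all genes were lower, and the median log2 change was -0.74. MYBL2 (-2.06), PLK1 (-1.61), CCNB1 (-0.93), TOP2A (-0.78) and E2F1 (-0.93) had the smallest adjusted p. Under CoCl2+estrogen 19 of the 20 were called below control (33.2% of all genes), with a median of -0.90. The interaction was called for 1 of the 20 (5.8% of all genes), TOP2A, and with CoCl2 alone the median was -0.03.

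Among genes of the BCL2 family, the caspases and their inhibitors, 18 of 22 were called with estrogen (81.8%, against 68.9% of all genes). Of these, 15 were higher and 3 lower (34.7% and 34.2% of all genes). The higher ones included genes of both effects on survival: the BH3-only gene BMF (2.81) and the protective genes MCL1 (1.29), BIRC3 (2.83-fold), BIRC2 (1.19) and XIAP (1.00). The 3 lower genes, picked out after their values were seen, were CASP6 (-1.46), CASP8 (-0.33) and CASP9 (-0.71). BMF was also the single gene of the list raised by CoCl2 alone (0.93), where 1.31% of all genes rose.

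Of 6 noncoding p53 targets, 5 rose with estrogen, as did 34.7% of all genes, and TP53TG1 fell (-1.26, adjusted p = 6.17e-05). LINC-PINT (1.46), PURPL (1.51) and MIR34AHG (0.73), the host gene of miR-34a, rose, as did DINOL. DINOL, a damage-induced RNA that binds p53, lies beside CDKN1A and measured 1.83, 1.52 and 1.21 CPM in control cells, 5.12, 3.78 and 4.01 CPM with estrogen and 2.26, 1.83 and 1.72 CPM with CoCl2+estrogen. Its 2.83-fold rise (adjusted p = 3.53e-05) and its negative interaction (-1.46, adjusted p = 0.0149) had the signs of those of CDKN1A, and reads of the neighbours were not separated here.

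**Figure D5:**
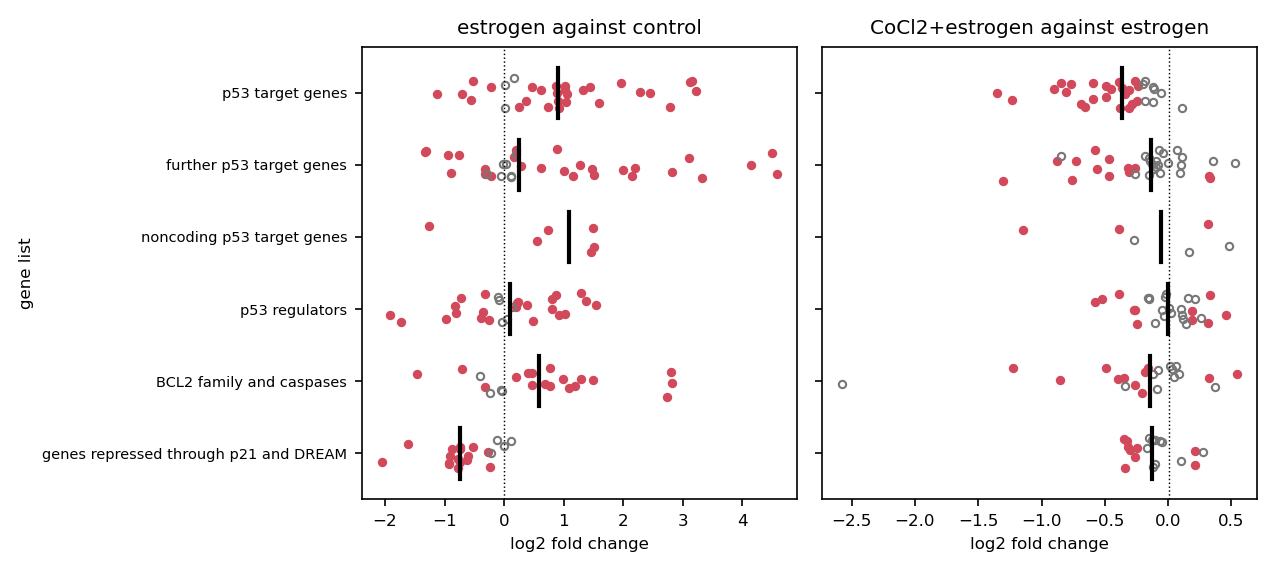
Log2 fold change of single genes in 6 lists, for estrogen against control and for CoCl2+estrogen against estrogen; filled points have an adjusted p of at most 0.05, open points do not, thick bars are list medians and the dotted line is the median of all genes tested. The 31 p53 targets have medians of 0.91 and -0.36 in the panels, and the p21 and DREAM list has medians of -0.74 and -0.12.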

How the data were processed

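RNA-Seq was performed by the authors on mouse liver and HepG2 cells, and the HepG2 table was used here. For it the authors deposited expected counts per gene, made in Partek Flow after Bowtie2 2.2.5 and STAR 2.7.8a alignment against hg38, as the submitters' notes name tools and builds without their roles; the methods name no build for HepG2. Of its values, 23.79% were not whole, and counts were rounded. The mouse table was not analysed here, and 0 sample columns were left unassigned.

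Genes counted above 5 in 1 or more libraries of a comparison were tested in R 4.3.3 by edgeR 4.0.16 (TMM scaling, quasi-likelihood test, Benjamini-Hochberg adjustment over all genes tested, threshold 0.05), with the 6 libraries of each pair of groups. The interaction was fitted over all 12 libraries. Standard errors were taken as the log2 change over the square root of F, and intervals are 95%. Levels are CPM with TMM scaling. Scripts were tested on simulated counts. Alternatives were DESeq2 1.42.0, 3 other scalings, 2 other filters, a replicate block, 1 fit over all 12 libraries and leaving out each library.

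Every member was named, with all of p53's regulators allowed and, from each other list, up to 5 called genes with the smallest adjusted p with estrogen or CoCl2, plus GDF15 and SESN2. CASP6, CASP8, CASP9 and SFN were named outside this rule, after their values were seen. The members and lists were chosen with earlier results of these data known, and the noncoding list was added once the table's symbols had been seen. A few genes of the other lists are not reported here and were left out of the lists' counts. No human sequence or annotation was used here. Libraries held 13592637 to 21701480 counts, a depth that sets the counting error but not the spread between libraries, and no 2 libraries agreed within sampling noise.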

Additional observations from a re-analysis of the deposited data

Results flagged for a closer look

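The effect of estrogen differed between cells with and without CoCl2 for 16 of the 31 p53 targets, by the interaction test over the 12 libraries (edgeR's quasi-likelihood test, Benjamini-Hochberg adjustment). The interaction, in log2 units, is the estrogen effect with CoCl2 minus that without it. In 11 genes it was called in every alternative scaling, filter and tool tried and without any 1 library: BBC3 (-1.75), BTG2 (-1.39), GADD45A (-1.26), PPM1D (-1.04), CDKN1A (-1.04), MDM2 (-0.99), PLK2 (-0.91), POLH (-0.85), EDA2R (-0.68), PHLDA3 (-0.65) and FAS (-0.60). BTG2 and MDM2 changed sign between the settings, rising with estrogen alone (0.48 and 0.74) and falling with estrogen in cells with CoCl2 (-0.94 and -0.27).

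In the other 5 the interaction was nearer the threshold. TP53INP1 (-0.48) lost its call without control replicate A or C or CoCl2 replicate C (adjusted p up to 0.0598), and TNFRSF10B (-0.42) under scaling by library totals (adjusted p = 0.0505). AEN (-0.48) and TIGAR (-0.38) each lost it in 8 of the 12 fits that left out 1 library, with adjusted p up to 0.0985 and 0.0963. XPC (-0.42) lost it in 9 of 12, with an adjusted p up to 0.124.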

How the results depend on the processing

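Counts of called p53 targets kept within 1.5 times of the reported ones in every comparison with estrogen. Leaving out each library in turn gave 27 to 29 called members for estrogen against control (28 reported), 25 to 26 for CoCl2+estrogen against control (26), 19 to 23 for CoCl2+estrogen against estrogen (23), 24 to 26 for CoCl2+estrogen against CoCl2 (26) and 12 to 19 for the interaction (16). For CoCl2 against control, where 0 were called, DESeq2 and the fit over all 12 libraries called 2, PPM1D and POLH, and leaving out 1 library gave 0 to 1, the 1 being POLH without CoCl2 replicate A. The number of all genes called with CoCl2 moved from 229 to 345 by DESeq2 and 359 in the fit over 12 libraries, and to 136, 147 and 140 without control replicate A, control replicate B and CoCl2 replicate C. For CoCl2+estrogen against estrogen it moved from 2706 to 1671 without estrogen replicate A.

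Scaling set the level of the members' medians. Library totals alone shifted the median log2 change of all genes to -0.13 for estrogen against control and -0.10 for CoCl2+estrogen against control. The members' median with estrogen was then 0.79, and 0.85 with upper-quartile scaling (0.91 reported), and with CoCl2+estrogen against control 0.29 (0.39 reported; 0.39 to 0.43 without 1 library). With CoCl2 alone it turned from 0.042 to -0.017, and it was 0.025 without CoCl2 replicate A, 0.079 without CoCl2 replicate B and 0.070 without control replicate A. Values near 0 changed sign: XPC and CCNG1 with estrogen were -0.049 and -0.048 with upper-quartile scaling and both -0.11 with library totals, and they ranged from -0.043 to 0.058 and from -0.019 to 0.060 without 1 library. MDM2 under CoCl2+estrogen against control ranged from -0.13 to 0.00036.

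Over all pairs of groups the replicate letters did not pair the libraries consistently. Of 18 same-letter pairs, 5 had deviations correlated above 0.1 (r from -0.31 to 0.29), and other pairs ran from -0.39 to 0.35. In 8 of 36 comparisons a library was closest to its own letter. Same-letter r was 0.22, 0.29 and -0.03 (A, B, C) between control and CoCl2. It was -0.04, 0.26 and 0.11 between estrogen and CoCl2+estrogen, so some pairing there stayed possible. With a replicate block the counts of called members were 2 for CoCl2, 28 for estrogen, 26 for CoCl2+estrogen against control, 24 against estrogen, 26 against CoCl2 and 13 for the interaction, which lost AEN, TIGAR and XPC. Calls over all genes rose with the block from 229 to 327 for CoCl2 and from 2706 to 3791 for CoCl2+estrogen against estrogen. They fell in the other comparisons, from 967 to 771 for the interaction.

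With 3 libraries a group, log2 changes of the members had standard errors of 0.05 to 0.25, so differences as small as those with CoCl2 alone lay near the limit of what these libraries could show. The cause of these shifts was not tested.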
